A study of Mus musculus with 20 samples.

Results

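Glycolysis and glycogen metabolism were followed through 36 genes, chosen by symbol, among the 31618 genes of a poly(A) RNA sequencing table from mouse gastrocnemius. The members cover glucose uptake, the steps of glycolysis and lactate handling, the glycerol phosphate shuttle, and the building and breakdown of glycogen. All 36 symbols were found, and Aldoa was held under 2 gene IDs, which gave 37 entries. Of these, 34 entries for 33 symbols had a mean level of at least 1 FPKM (fragments per kilobase of transcript per 1e6 fragments) and were tested, while Hk1, Pfkl and Pgm2 lay just below that limit.

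The 20 libraries came from male C57BL/6N mice in 4 groups of 5. The TM+NAC mice received tetrathiomolybdate (TM, a copper chelator) and N-acetylcysteine (NAC, a thiol antioxidant) together, the TM mice and the NAC mice received 1 compound each, and the treated groups are labelled 28 days. The Control mice are labelled with neither compound, and no dose, route or age was found in the labels. The series title names muscle function and reactive oxygen species as its question. Nothing in the labels ties each library to a mouse of its own, so a p-value sets a difference against the scatter of libraries, part of which may be technical.

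Skeletal muscle stores glucose as glycogen and releases it as glucose 1-phosphate when it contracts. Glycolysis turns that sugar into pyruvate and lactate and gives ATP without oxygen. Fast muscle fibres rely on this route most, and they use muscle-specific forms of several enzymes (Pfkm, Pgam2, Eno3, Pygm) in place of the forms found in most other cells.

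None of these genes passed the test (edgeR, adjusted p under 0.05) in any of 8 comparisons of the groups, in which 0 to 0.351% of all tested genes did. For Aldoa, Eno3, Pygm, Pgam2 and Pfkm, the 5 most abundant, the highest group mean was at most 1.11 times the lowest, and most intervals of the fold lay inside 1.5-fold either way. The 4 smallest p-values in TM+NAC against Control belonged to Slc16a1, Slc2a1 and Pgam1, with positive folds, and to the glycogen gene Ppp1r3c, with a negative one. The Gapdh entry varied more between libraries of 1 group than any other member.

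The tissue showed the pattern of fast muscle. Myh4, the fast IIb myosin, averaged 6989 FPKM over the 20 libraries and Myh7, the slow myosin, 30.8 FPKM. The libraries held 54.7 to 90.7 M counts (M stands for 1e6; median 63.3 M), and the glycolysis and glycogen genes took 3.90 to 5.84% of them. NAC library 4 stood apart, with the largest total, the largest share of counts from the mitochondrial genome (20.3%, against a median of 15.2% over all libraries) and the smallest share for these genes. Levels per library are given below in counts per M after scaling with edgeR's TMM factors (TMM-scaled CPM), and levels are set between genes only in FPKM.

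Levels of some markers of other cell types moved with the groups, and their part in the results below was not tested. None of 10 neuron genes was at 0 in all libraries, and 2 were tested. Their summed level was 59.6 to 79.9 CPM in TM+NAC libraries, 9.26 to 52.5 in TM libraries, 6.14 to 75.4 in NAC libraries and 6.47 to 10.6 in Control libraries. Both tested neuron genes passed as higher in TM+NAC than in Control, where 0.351% of all tested genes were called in either direction. Snap25, 1 of the 2, averaged 1.042 FPKM over all libraries, just above the limit for testing. Its mean was 12.79 CPM in TM+NAC and 1.345 CPM in Control, so the libraries in which it was high brought it into the test. The 6 cartilage genes summed to 22.4 to 35.0 CPM in TM+NAC libraries and 5.37 to 14.9 CPM in Control libraries. The sum of 7 astrocyte and oligodendrocyte markers, of which 2 were tested and none was at 0 in all libraries, was 57.6 to 69.2 CPM in TM+NAC libraries, 48.7 to 77.9 in TM libraries, 51.7 to 67.8 in NAC libraries and 45.6 to 51.9 in Control libraries. Among them Slc1a2, a glutamate carrier, was below the limit for testing. It was at 11.5 to 15.4 CPM in TM+NAC libraries and 0.139 to 0.750 CPM in Control libraries. Gfap, Slc1a3, Mog and Mag, also untested, had higher means in TM+NAC than in Control too. Aldh1l1 and Aqp4, the 2 that were tested, had lower means there, with log2 folds of -0.062 and -0.247, and neither passed. Aqp4, a water channel that fast muscle fibres also make, gave the largest part of the sum. Both Aldh1l1 and Aqp4 overlapped between these groups. The sums of Schwann cell, adipocyte, erythroid, endothelial, fibroblast, macrophage, fast fibre and slow fibre markers overlapped between TM+NAC and Control. Of 9 slow fibre markers, 2 had a positive fold there and the median log2 fold was -0.33. At an unadjusted edgeR p under 0.05 stood 4 of these 9, where 6.38% of all tested genes did. Of 9 fast fibre markers, 1 had a positive fold, with a median of -0.10. None of these fibre markers passed. In whole muscle, a different number of cells of a type and a different amount of RNA per cell cannot be told apart.

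Across the 37 entries the level spanned from 0.817 FPKM for Pgm2 to 4290 FPKM for Aldoa. Aldoa, the aldolase that splits fructose 1,6-bisphosphate, ranked 28 among all genes of the table. Eno3, the muscle enolase, averaged 2761 FPKM, Pygm, the muscle glycogen phosphorylase, 1997 FPKM and Pgam2, the muscle phosphoglycerate mutase, 1551 FPKM. Pfkm, the muscle phosphofructokinase that commits sugar to glycolysis, stood at 838 FPKM, Ldha at 741, Tpi1 at 667 and Pkm at 547 FPKM. Aldoa alone gave 28.6% of all counts of these genes, and Aldoa, Pygm and Eno3 together gave 54.3%. Among the genes of glycogen synthesis, Pgm1 stood at 395 FPKM, Ugp2 at 213 and Gyg at 109 FPKM. Gys1, the muscle glycogen synthase, stood at 64.3 FPKM and Gbe1, the branching enzyme, at 6.82 FPKM. The breakdown genes other than Pygm were in a like range, with Phka1 at 129, Phkg1 at 85.5 and Phkb at 59.4 FPKM. The lengths behind the FPKM values are not given, and they bear on this order. Mean counts were 59724 for Phka1 and 41024 for Phkg1, with transcripts of 6115 and 2374 bases. Counts over these lengths put Phkg1 above Phka1.

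**Figure D1:**
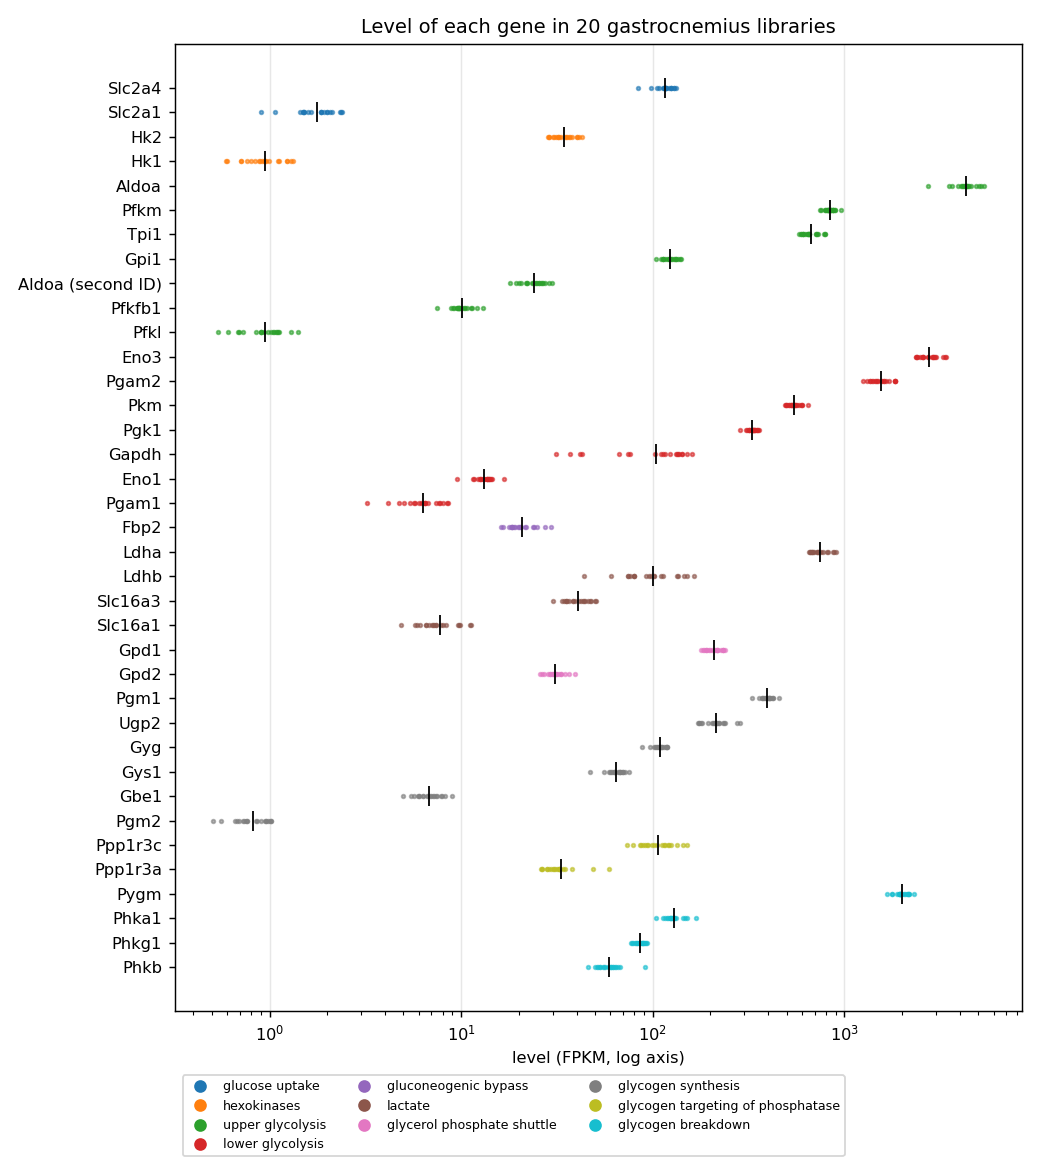
Level of each gene in FPKM on a log axis, with genes grouped by role. Each point is 1 of 20 libraries and each tick is the mean: Aldoa, Eno3, Pygm and Pgam2 have the highest means, while Hk1, Pfkl and Pgm2 lie just under 1 FPKM, and the points of Gapdh and Ldhb spread widest.

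The forms of an enzyme or carrier that fast muscle favours outweighed their relatives by very different margins. By mean FPKM, Pfkm exceeded Pfkl, the liver form, by a factor of 885. Pgam2 exceeded Pgam1 by 246, Eno3 exceeded Eno1 by 209, and Slc2a4 exceeded Slc2a1 by 65.5. The factor was 7.38 for Ldha over Ldhb and 5.26 for Slc16a3 over Slc16a1. Gpd1 and Gpd2, which are different enzymes of 1 shuttle, stood at a ratio of 6.70. Hk2 made up 97.3% ± 0.556 of the summed FPKM of Hk1 and Hk2 (SD, n = 20 libraries). These are descriptions of levels, and shares by counts are given with the dependence on processing. The lengths behind the FPKM values are not given, so the size of these factors is uncertain. Mean counts over the length of the transcript with the longest coding sequence give smaller factors for Pfkm, Eno3, Pgam2 and Gpd1. They give larger ones for Slc2a4, Ldha and Slc16a3. For Pfkm and Pfkl these were 205654 counts over 2879 bases and 465 over 3730. For Ldha and Ldhb they were 180327 over 1815 and 11515 over 1304.

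Because Pgam2 and Pgam1 catalyse the same step at levels so far apart, and Slc16a3 and Slc16a1 carry the same lactate, the promoter windows of these pairs are shown side by side. Each runs from 250 bases before to 50 after the RefSeq start, on the gene's strand (GRCm38.p6). Capitals mark CANNTG (the E-box, read by myogenic and other helix-loop-helix factors), TATAAA (the TATA box) and ACGTG (the core of the hypoxia response element) on either strand. The windows are chr11:5803747-5804046 on the minus strand for Pgam2, and on the plus strand chr19:41911621-41911920 for Pgam1, chr11:120948817-120949116 for Slc16a3 and chr3:104638414-104638713 for Slc16a1.
Pgam2: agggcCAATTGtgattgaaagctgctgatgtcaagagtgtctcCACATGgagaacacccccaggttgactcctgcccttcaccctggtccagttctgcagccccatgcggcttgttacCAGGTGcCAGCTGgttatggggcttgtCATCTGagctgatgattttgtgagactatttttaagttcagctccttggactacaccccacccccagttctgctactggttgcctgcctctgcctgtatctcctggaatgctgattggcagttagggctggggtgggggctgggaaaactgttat
Pgam1: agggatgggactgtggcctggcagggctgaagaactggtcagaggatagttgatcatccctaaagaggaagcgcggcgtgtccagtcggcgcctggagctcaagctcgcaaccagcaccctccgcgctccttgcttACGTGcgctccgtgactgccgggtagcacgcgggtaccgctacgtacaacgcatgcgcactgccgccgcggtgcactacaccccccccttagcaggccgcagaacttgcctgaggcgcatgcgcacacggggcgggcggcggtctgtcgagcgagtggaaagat
Slc16a3: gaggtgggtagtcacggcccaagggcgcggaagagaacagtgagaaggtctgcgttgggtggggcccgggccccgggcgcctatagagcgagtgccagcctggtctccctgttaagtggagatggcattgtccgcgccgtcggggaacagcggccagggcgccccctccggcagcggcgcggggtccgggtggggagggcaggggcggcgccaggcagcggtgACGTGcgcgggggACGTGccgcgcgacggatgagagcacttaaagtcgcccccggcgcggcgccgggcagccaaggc
Slc16a1: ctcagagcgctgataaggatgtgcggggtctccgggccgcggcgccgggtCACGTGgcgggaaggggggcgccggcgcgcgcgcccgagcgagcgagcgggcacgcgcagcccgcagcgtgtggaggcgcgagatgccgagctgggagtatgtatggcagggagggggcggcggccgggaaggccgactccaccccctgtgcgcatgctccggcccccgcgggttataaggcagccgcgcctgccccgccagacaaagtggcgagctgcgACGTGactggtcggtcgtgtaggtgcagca

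The Pgam2 window held 5 E-boxes, no ACGTG and 1 CpG at a GC content of 53.3%. The Pgam1 window held no E-box, 1 ACGTG and 30 CpG at a GC content of 65.0%. Slc16a3 had no E-box, 2 ACGTG and 36 CpG, and Slc16a1 had 1 E-box, 3 ACGTG and 42 CpG. A CACGTG, as in Slc16a1, is an E-box and counts as an ACGTG on each strand. None of the 4 windows held TATAAA. RefSeq windows were found for 34 of the 36 genes, 49 windows in all, and Slc2a4 and Gpd1 had none. An E-box was present in 75.5% of these windows and in 72.3% of all 32851 mouse windows, TATAAA in 8.16% against 13.6%, and ACGTG in 44.9% against 19.6%. The median window held 17 CpG among these genes and 7 among all. A match of letters is a description and shows no bound factor.

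Glucose uptake rests on Slc2a4 (GLUT4), the insulin-sensitive carrier of muscle, and Slc2a1 (GLUT1), the carrier of most other cells. Slc2a4 was measured at 499, 479.6, 459.8, 495 and 487 CPM in the TM+NAC libraries, at 453, 439, 426, 466 and 497 in the TM libraries, at 459, 491, 487, 358 and 442 in the NAC libraries, and at 498, 523, 421, 502 and 464 in the Control libraries. Its groups overlapped, NAC library 4 was the lowest, and the log2 fold against Control was 0.01 ± 0.08 in TM+NAC, -0.08 ± 0.08 in TM and -0.11 ± 0.08 in NAC (edgeR, ± SE). Slc2a1 (chr4:119108711-119137983) was measured at 7.77, 7.37, 9.38, 9.06 and 9.12 CPM in the TM+NAC libraries, at 5.99, 6.18, 6.51, 6.11 and 8.07 in the TM libraries, at 7.87, 8.73, 8.34, 4.601 and 7.15 in the NAC libraries, and at 3.95, 6.14, 8.05, 6.24 and 6.88 in the Control libraries. The TM+NAC libraries filled the upper end, but Control library 3, TM library 5 and 3 NAC libraries reached into their range. Its log2 fold in TM+NAC was 0.45 ± 0.17 against Control and 0.38 ± 0.17 against TM, with edgeR adjusted p of 0.524 and 0.939. Leaving out Control library 1, the lowest of all, brought the first of these to 0.33. The share of Slc2a1 in the summed FPKM of both carriers was 1.72% ± 0.207 in TM+NAC, 1.40% ± 0.129 in TM, 1.58% ± 0.189 in NAC and 1.29% ± 0.398 in Control (SD, n = 5).

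Hexokinases trap glucose in the cell by phosphorylating it. Hk2, the main muscle form, was measured at 266, 216, 271, 266 and 221 CPM in the TM+NAC libraries, at 247, 225, 242, 200.1 and 210.0 in the TM libraries, at 263, 231, 247, 261 and 231 in the NAC libraries, and at 212, 199, 221, 314 and 222 in the Control libraries. Control library 4 was the highest and the groups overlapped. Hk1, the form of brain and most other tissues, averaged 0.943 FPKM and was measured at 11.8, 9.24, 12.8, 8.78 and 12.4 CPM in the TM+NAC libraries, at 9.003, 11.1, 7.08, 7.999 and 8.803 in the TM libraries, at 12.2, 9.01, 9.55, 7.4996 and 10.6 in the NAC libraries, and at 6.36, 9.11, 8.05, 6.35 and 8.504 in the Control libraries. The TM+NAC libraries reached the highest values, and the lowest of them lay below 1 Control library. In a fit without the limit on low levels, the log2 fold of Hk1 was 0.50 ± 0.15 in TM+NAC against Control (edgeR adjusted p = 0.116), 0.19 ± 0.15 in TM and 0.33 ± 0.15 in NAC. That adjusted p was the lowest of any member in the fits that were read for the members. Fits that both dropped this limit and left out libraries were read for Aldoc and Eno2 only.

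In upper glycolysis, Pfkm was measured at 3321, 3320.2, 3051, 3137 and 3186 CPM in the TM+NAC libraries, at 3105, 3144, 3203, 3719 and 3252 in the TM libraries, at 3307, 3270.1, 3241, 3093 and 3265 in the NAC libraries, and at 3654, 3091, 3059, 3385 and 3123 in the Control libraries. The groups overlapped fully, and the highest group mean was 1.03 times the lowest. Its 95% interval of the log2 fold in TM+NAC against Control ran from -0.17 to 0.12. Pfkl, at 0.947 FPKM, was measured at 9.63, 8.28, 10.7, 8.08 and 7.88 CPM in the TM+NAC libraries, at 7.704, 8.504, 7.08, 5.42 and 6.61 in the TM libraries, at 7.26, 7.27, 7.98, 4.45 and 8.16 in the NAC libraries, and at 6.12, 7.63, 5.64, 4.99 and 7.196 in the Control libraries. All 5 TM+NAC libraries lay above all 5 Control libraries, as did 1.10% of the tested genes, although Pfkl itself was below the level for testing. Without that limit its log2 fold was 0.48 ± 0.16 in TM+NAC against Control (edgeR adjusted p = 0.192).

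Aldoa itself ranged from 9770 CPM in NAC library 4 to 18089 CPM in TM library 4, and its group means were 14806 ± 1914 CPM in TM+NAC, 14864 ± 2396 in TM, 13415 ± 2085 in NAC and 14826 ± 1349 in Control (SD, n = 5). The log2 fold was -0.0019 ± 0.13 in TM+NAC, 0.0038 ± 0.13 in TM and -0.14 ± 0.13 in NAC against Control. A second entry carries the symbol Aldoa (ENSMUSG00000114515, chr7:126800790-126809108), lies next to the first and overlaps Fam57b on the opposite strand, whose counts come to 133% of its own. That entry was measured at 24.3, 23.8, 18.7, 20.98 and 22.8 CPM in the TM+NAC libraries, at 23.9, 22.02, 23.3, 26.6 and 27.3 in the TM libraries, at 22.7, 21.1, 24.1, 23.3 and 19.5 in the NAC libraries, and at 25.5, 16.8, 19.01, 19.8 and 20.7 in the Control libraries. No source names the use of strand in counting, so its reads cannot be told apart from those of Fam57b. The log2 fold of this second entry in TM against Control was 0.27 ± 0.10. That fold had the smallest unadjusted p of the 34 entries there (0.0146), with an edgeR adjusted p of 0.999, and Control library 1 lay within the TM values.

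Tpi1, the triose phosphate isomerase, and Gpi1, the glucose 6-phosphate isomerase, had groups that overlapped, with ranges of 1850.4 to 2507 and 823 to 1055 CPM over the 20 libraries. Pfkfb1, a bifunctional enzyme that sets the level of the phosphofructokinase activator fructose 2,6-bisphosphate, ranged over 37.8 to 63.99 CPM. None of these 3 had a log2 fold beyond 0.1 in either direction against Control in TM+NAC, where they gave 0.01 ± 0.09, -0.04 ± 0.08 and -0.05 ± 0.11. Fbp2, the muscle fructose bisphosphatase that runs the phosphofructokinase step backwards, was measured at 27.1, 36.4, 30.3, 37.7 and 40.7 CPM in the TM+NAC libraries, at 30.5, 31.7, 34.1, 40.9 and 27.4 in the TM libraries, at 35.1, 33.3, 32.5, 52.9 and 32.6 in the NAC libraries, and at 33.8, 36.6, 31.99, 49.5 and 33.1 in the Control libraries. NAC library 4 and Control library 4 were high in their groups, and the log2 fold in TM against Control was -0.17 ± 0.15.

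In lower glycolysis, Pgk1, the X-linked phosphoglycerate kinase, was measured at 870.5, 894, 721, 816 and 889.9 CPM in the TM+NAC libraries, at 847, 897, 886, 930.0 and 884 in the TM libraries, at 831, 833, 796, 923 and 801 in the NAC libraries, and at 935, 857, 849.8, 879 and 879 in the Control libraries. It was among the steadiest genes, and the highest of its 20 values was 1.30 times the lowest. The mean effect of NAC, taken over libraries with and without TM, was -0.08 ± 0.05 on the log2 scale. Pgam2 was measured at 1538, 1756, 1299, 1307 and 1719 CPM in the TM+NAC libraries, at 1241, 1451, 1357, 1672 and 1773 in the TM libraries, at 1428, 1624, 1414, 1294 and 1453 in the NAC libraries, and at 1690.3, 1793, 1463, 1412 and 1540.5 in the Control libraries. Its groups overlapped, with a log2 fold of -0.05 ± 0.11 in TM+NAC against Control.

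Pgam1 (chr19:41911923-41918660), the phosphoglycerate mutase of brain and most other tissues, was measured at 16.3, 17.3, 18.96, 18.3 and 17.8 CPM in the TM+NAC libraries, at 12.8, 15.1, 9.58, 13.1 and 15.2 in the TM libraries, at 14.3, 14.3, 14.3, 7.85 and 14.2 in the NAC libraries, and at 12.4, 17.8, 13.3, 11.5 and 14.8 in the Control libraries. All 5 TM+NAC libraries lay above all 5 TM libraries and above all 5 NAC libraries, and Control library 2 fell inside the TM+NAC range. It was the only one of the 34 tested entries (2.94%) with groups that did not overlap in a comparison, and 0.959% of tested genes lay wholly above TM and 1.44% wholly above NAC. The log2 fold in TM+NAC was 0.43 ± 0.15 against TM, 0.45 ± 0.15 against NAC and 0.34 ± 0.15 against Control, with edgeR adjusted p of 0.790, 0.409 and 0.700. The interaction, the log2 fold of TM+NAC over NAC less that of TM over Control, was 0.54 ± 0.22 (edgeR adjusted p = 0.597). Without NAC library 4, the fold against NAC was 0.32 and the interaction 0.39. The means of the neuron, cartilage and astrocyte and oligodendrocyte sums were also highest in TM+NAC, the last at 63.2 CPM against 60.9 in NAC and 60.3 in TM. So was the mean Schwann cell sum, at 305 CPM against 223 in NAC and 180 in TM. The mean fibroblast sum was 678 CPM in TM+NAC, also the highest, against 664 in NAC and 573 in TM. NAC libraries 1, 2, 3 and 5 had neuron sums of 64.3 to 75.4 CPM, within the TM+NAC range, with Pgam1 at 14.2 to 14.3 CPM. NAC library 4 had the lowest neuron sum of the 20 libraries, 6.14 CPM, and the lowest Pgam1, 7.85 CPM. The Control libraries had neuron sums of 6.47 to 10.6 CPM, with Pgam1 at 11.5 to 17.8 CPM. The part of these markers in Pgam1 was not tested.

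Eno3 was measured at 5697, 6474, 4629.9, 5093 and 6633 CPM in the TM+NAC libraries, at 4951, 4802, 5005, 6752 and 5982 in the TM libraries, at 5196, 6007, 5312, 5116 and 5471 in the NAC libraries, and at 6339, 6008, 5115, 5489.9 and 5299 in the Control libraries. Eno1, the enolase of most other tissues, was measured at 85.2, 88.2, 83.97, 76.04 and 101 CPM in the TM+NAC libraries, at 69.8, 79.1, 78.4, 85.8 and 86.5 in the TM libraries, at 85.6, 84.7, 83.7, 62.96 and 76.9 in the NAC libraries, and at 82.4, 89.9, 84.3, 77.1 and 87.5 in the Control libraries. The groups of both overlapped, and the log2 fold in TM+NAC against Control was 0.01 ± 0.11 for Eno3 and 0.05 ± 0.09 for Eno1. Pkm, the pyruvate kinase that closes glycolysis, ranged over 2825 to 3765 CPM, with Control library 1 high in its group and a log2 fold of -0.06 ± 0.08 in TM+NAC.

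**Figure D2:**
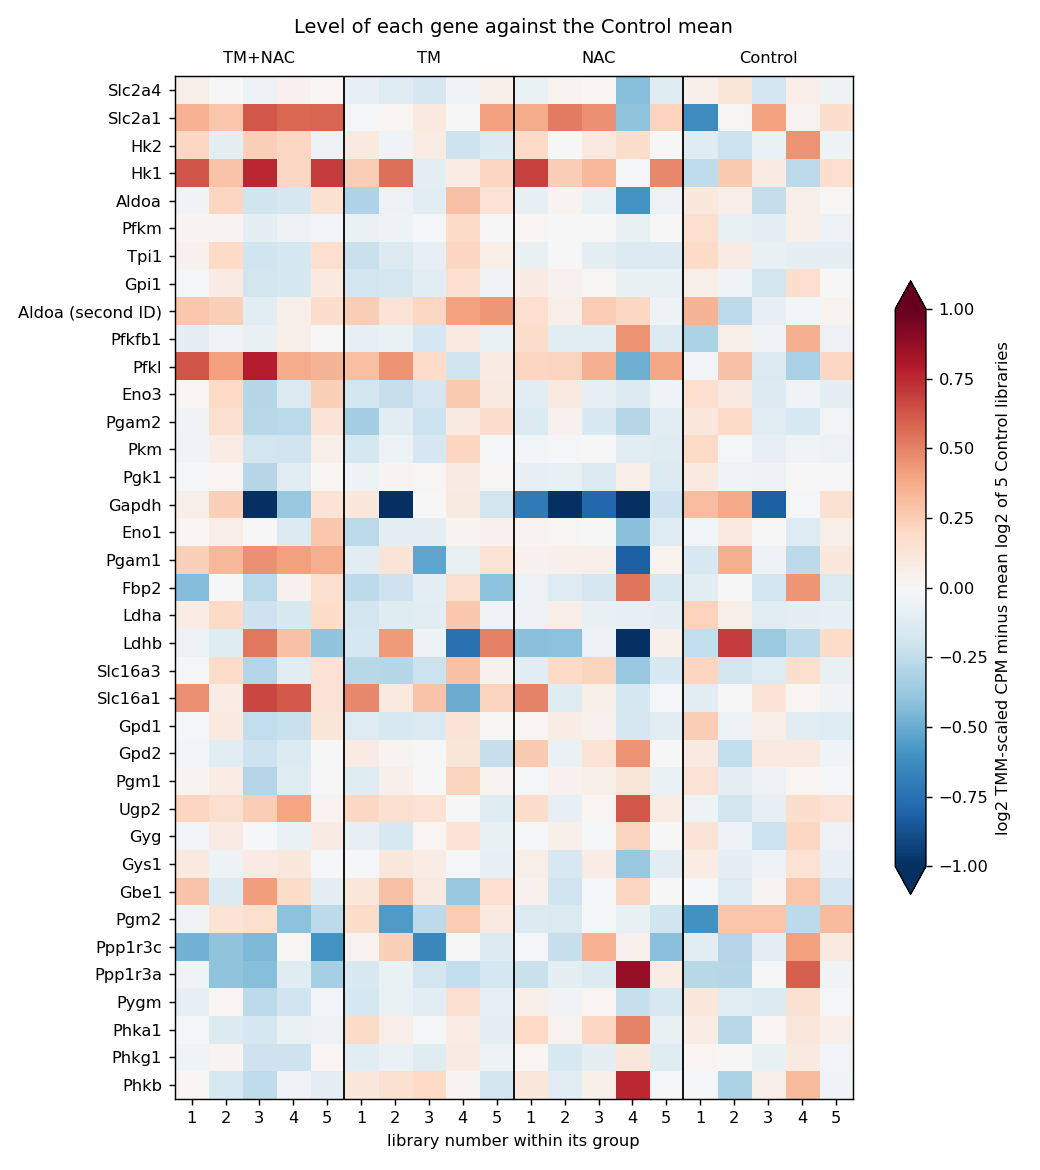
Each cell is the log2 TMM-scaled CPM of 1 gene (rows, by role) in 1 library (columns, by group) minus the mean log2 value of the 5 Control libraries, with colours clipped at -1 and 1. NAC library 4 departs from its group in both directions, and the Gapdh entry is low in single libraries of several groups.

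Gapdh, which makes NADH while it adds phosphate to glyceraldehyde 3-phosphate, is often used as a constant reference. Its entry was measured at 620.0, 704, 145, 459 and 656 CPM in the TM+NAC libraries, at 642, 202, 596, 634 and 525 in the TM libraries, at 364, 183, 345, 217 and 515 in the NAC libraries, and at 738, 774, 338, 589 and 661 in the Control libraries. TM+NAC library 3, TM library 2 and NAC libraries 2 and 4 lay at 217 CPM or below, and the highest value was 5.32 times the lowest. The within-group SD was 0.71 on the log2 scale, against a median of 0.19 over all tested genes, and 2.11% of tested genes had a larger one. Among 400 genes within 2-fold of its mean FPKM, 8 had a larger SD. The log2 fold in NAC against Control was -0.93 ± 0.36, the largest of any member in any pairwise comparison (unadjusted p = 0.0185, edgeR adjusted p = 0.638).

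The mouse genome holds many processed copies of Gapdh, and the sequence of 1 of them shows how alike they are. A stretch of 60 bases of the Gapdh coding sequence (bases 111 to 170, gene at chr6:125161715-125165773, minus strand) is set beside the same stretch of the pseudogene Gapdh-ps15 (bases 33 to 92, chrY:38619783-38620784, plus strand), both from the GRCm38 reference. The capital marks the 1 base in which they differ.
Gapdh: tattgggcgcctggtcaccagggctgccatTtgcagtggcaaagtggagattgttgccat
Gapdh-ps15: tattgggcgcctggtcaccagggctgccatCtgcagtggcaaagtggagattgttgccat

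Over 999 aligned bases the copies were identical at 994, or 99.5%. Of all stretches of 50 bases in the Gapdh transcript, 90.4% also occur in transcripts of other genes. The table holds 73 further entries with at least 10% of those stretches, of which 70 are annotated as pseudogenes. These entries summed to 5475 to 9801 CPM per library, so the Gapdh entry held 2.04 to 8.83% of the counts of all 74. No source says how a read that matches several copies was counted, and a read may stand in more than 1 entry.

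The sum over Gapdh and its 73 like entries averaged 8608 ± 1269 CPM in TM+NAC, 8513 ± 1255 in TM, 7766 ± 1227 in NAC and 8652 ± 842 in Control (SD, n = 5). Its highest library was 1.83 times its lowest, much like Aldoa at 1.85 times. The groups overlapped, and NAC library 4 was the lowest of the 20 at 5692 CPM. Gapdh-ps15 and the related copy Gapdh-ps16 kept a steady ratio, with 69.8 to 74.4 counts of the second per 100 of the first, while Gapdh itself went from 90.6 to 476 per 100. The Gapdh entry per 100 of Aldoa ran from 1.13 to 5.38. The value of the Gapdh entry is therefore uncertain as a measure of Gapdh RNA, and its fold in NAC is given with that limit.

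**Figure D3:**
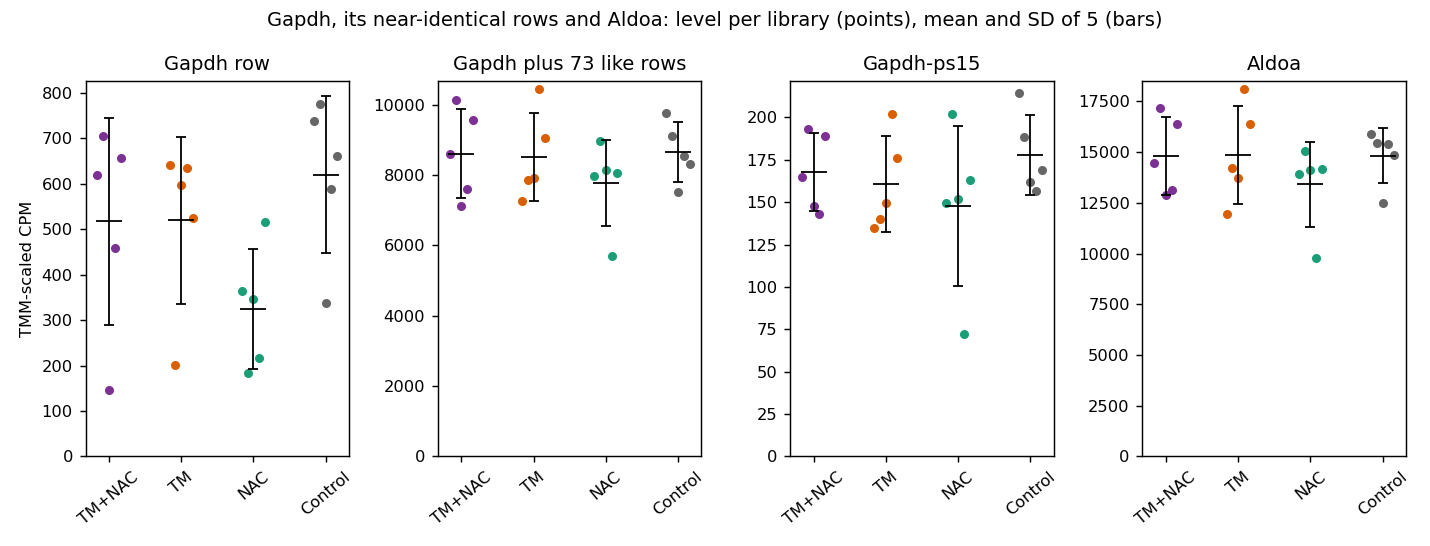
TMM-scaled CPM per library for the Gapdh entry, for Gapdh plus its 73 like entries, for Gapdh-ps15 and for Aldoa, on linear axes that start at 0; points are libraries, and bars give the mean and SD of 5. The 4 libraries in which the Gapdh entry lies at 145 to 217 CPM (TM+NAC 3, TM 2, NAC 2 and NAC 4) have sums of 7120, 7872, 8971 and 5692 CPM.

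Other members share sequence with relatives too. Stretches of 50 bases shared with other genes made up 72.2% of Eno1, 68.0% of Pgk1, 41.5% of Pgam1, 34.4% of Pkm and 27.0% of Ldhb, and 19 of the 37 entries had none. Within the coding sequence alone, such stretches made up 100% of Pgam1, 100% of Pgk1 and 83.3% of Eno1. Pgam1 held 93.1 to 97.0% of the counts of itself and its like entries, Eno1 89.3 to 93.2% and Pgk1 96.5 to 97.4%. For Ldhb this share of counts was 99.5 to 99.9%, and for Pkm it was not computed. Since no source says how reads that match several entries were counted, these shares do not show which gene such reads came from.

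Lactate dehydrogenase turns pyruvate to lactate with Ldha, the muscle subunit, and Ldhb, the heart subunit. Ldha was measured at 3025, 3275, 2485, 2575 and 3259 CPM in the TM+NAC libraries, at 2529.8, 2637, 2653, 3458 and 2780.4 in the TM libraries, at 2759.8, 2997, 2725, 2708 and 2674 in the NAC libraries, and at 3371, 2987, 2649, 2682 and 2717 in the Control libraries. Its groups overlapped, and its log2 fold in TM+NAC against Control was 0.02 ± 0.10. Ldhb was measured at 178, 170.1, 267, 227 and 139.7 CPM in the TM+NAC libraries, at 164, 249, 179, 110.2 and 262 in the TM libraries, at 139, 139, 178, 84.6 and 191 in the NAC libraries, and at 156, 300.0, 143, 155 and 209.8 in the Control libraries. The highest Ldhb value, in Control library 2, was 3.55 times the lowest, in NAC library 4, and 7.35% of tested genes had a larger within-group SD. Its log2 fold in NAC against Control was -0.40 ± 0.25 (edgeR adjusted p = 0.641), and -0.18 without Control library 2, the highest of the 20.

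Lactate leaves and enters cells through Slc16a3 (MCT4), the exporter of fast fibres, and Slc16a1 (MCT1), the carrier of oxidative fibres and many other cells. Slc16a3 was measured at 251, 289, 208, 237 and 281 CPM in the TM+NAC libraries, at 210.2, 209, 219, 312 and 263 in the TM libraries, at 237, 293, 297, 196 and 229 in the NAC libraries, and at 295, 225, 233, 287 and 242 in the Control libraries. The groups overlapped, with a log2 fold of -0.02 ± 0.13 in TM+NAC against Control. Slc16a1 (chr3:104638668-104658462) was measured at 48.2, 36.99, 55.9, 53.8 and 38.7 CPM in the TM+NAC libraries, at 49.1, 37.7, 42.9, 24.9 and 41.1 in the TM libraries, at 49.5, 32.2, 36.6, 31.2 and 34.8 in the NAC libraries, and at 32.6, 34.99, 38.4, 35.6 and 34.4 in the Control libraries. The Control libraries were close together, at 32.6 to 38.4 CPM, and 4 of the 5 TM+NAC libraries lay above them all, while TM+NAC library 2 lay inside. The log2 fold was 0.41 ± 0.16 in TM+NAC, 0.15 ± 0.16 in TM and 0.07 ± 0.16 in NAC against Control, and the first had an unadjusted p of 0.0156 and an edgeR adjusted p of 0.519. The mean effect of TM over libraries with and without NAC was 0.25 ± 0.11 (adjusted p = 0.827). Slc16a1 took 18.4% ± 4.72 of the summed FPKM of both carriers in TM+NAC, 16.7% ± 4.95 in TM, 15.2% ± 3.25 in NAC and 14.3% ± 1.98 in Control.

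The glycerol phosphate shuttle passes electrons of cytosolic NADH to the respiratory chain through Gpd1 in the cytosol and Gpd2 in the mitochondrion. Gpd1 was measured at 723, 780.2, 615, 624 and 793 CPM in the TM+NAC libraries, at 667, 658, 660.0, 796 and 735 in the TM libraries, at 739, 768, 750.2, 650.1 and 676 in the NAC libraries, and at 864, 699.6, 765, 673 and 666 in the Control libraries. Gpd2 was measured at 228, 216, 201, 211 and 233 CPM in the TM+NAC libraries, at 246, 237, 232, 253 and 198 in the TM libraries, at 278, 222, 255, 316 and 233 in the NAC libraries, and at 246, 196, 249, 249 and 225 in the Control libraries. The groups overlapped for both, and NAC library 4 gave the highest Gpd2 value. The log2 fold of Gpd2 in TM+NAC against NAC was -0.26 ± 0.09 (unadjusted p = 0.0116, edgeR adjusted p = 0.409), and -0.18 without NAC library 4.

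**Figure D4:**
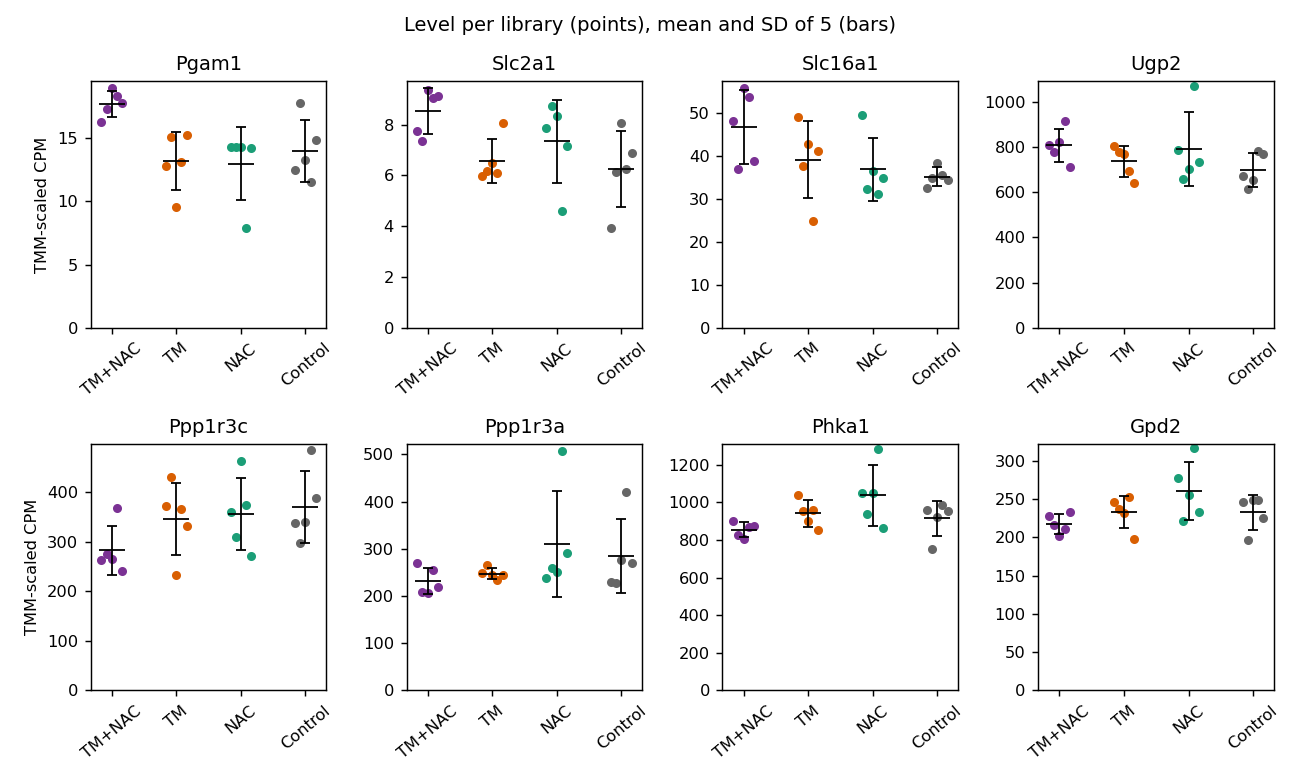
TMM-scaled CPM per library for 8 genes that had among the 4 smallest p-values of the tested entries in at least 1 comparison, on linear axes that start at 0. Points are libraries, and bars give the mean and SD of 5. The TM+NAC points of Pgam1 lie above those of TM and NAC, and NAC library 4 gives the highest point of Ugp2, Ppp1r3a, Phka1 and Gpd2.

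Glycogen synthesis begins with Pgm1, which turns glucose 6-phosphate to glucose 1-phosphate, and Ugp2, which makes the donor UDP-glucose. Ugp2 was measured at 807, 777, 823, 915 and 712 CPM in the TM+NAC libraries, at 803, 779, 768, 696 and 639 in the TM libraries, at 787, 658, 703, 1069.5 and 734 in the NAC libraries, and at 671, 614, 656, 784 and 769 in the Control libraries. The groups overlapped and NAC library 4 was the highest, and the log2 fold was 0.21 ± 0.11 in TM+NAC, 0.08 ± 0.11 in TM and 0.18 ± 0.11 in NAC against Control. Pgm1 (chr4:99929414-99987294), Gyg, the glycogenin that primes each particle, and Gys1 ranged over 1088 to 1556, 253 to 343 and 276 to 396 CPM. Their log2 folds in TM+NAC against Control were -0.06 ± 0.08, 0.0039 ± 0.08 and 0.04 ± 0.08, and their groups overlapped. Gbe1 had a log2 fold of 0.14 ± 0.12, and Pgm2, a related mutase at 0.817 FPKM, had one of -0.13 ± 0.19 without the limit on low levels.

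Ppp1r3a and Ppp1r3c tether protein phosphatase 1 to glycogen, where it switches the synthase on and the phosphorylase off. Ppp1r3c was measured at 263, 275, 266, 367 and 241 CPM in the TM+NAC libraries, at 372, 429, 233, 365 and 331 in the TM libraries, at 359.8, 309.6, 462, 375 and 272 in the NAC libraries, and at 337, 296, 340.1, 485 and 389 in the Control libraries. Of the TM+NAC libraries, 4 of 5 lay below all Control libraries, and TM+NAC library 4 stood well above the other 4. The log2 fold of Ppp1r3c in TM+NAC was -0.39 ± 0.16 against Control (unadjusted p = 0.0280, edgeR adjusted p = 0.660) and -0.29 ± 0.16 against TM. Without Control library 4 the first was -0.27, and without TM+NAC library 4 it was -0.49. Ppp1r3a was measured at 269, 209.5, 206, 255 and 219.8 CPM in the TM+NAC libraries, at 249, 265, 244, 234 and 245 in the TM libraries, at 237, 259, 251, 507 and 291 in the NAC libraries, and at 229, 227, 277, 419 and 270.1 in the Control libraries. NAC library 4 and Control library 4 stood far above the rest of their groups, and the other libraries of all groups overlapped. Its log2 fold in TM+NAC against NAC was -0.41 ± 0.18, and -0.16 without NAC library 4.

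Glycogen is broken down by Pygm, which phosphorylase kinase activates through its regulatory subunits Phka1 and Phkb and its catalytic subunit Phkg1. Pygm ranged over 6449 to 8643 CPM with overlapping groups, and its log2 fold was -0.11 ± 0.09 in TM+NAC against Control. Pygm over Gys1, as a ratio of FPKM, was 29.1 ± 3.73 in TM+NAC, 30.8 ± 3.46 in TM, 33.0 ± 2.16 in NAC and 32.2 ± 1.26 in Control (SD, n = 5). Phka1 was measured at 901, 827, 805, 868 and 876 CPM in the TM+NAC libraries, at 1040.2, 953, 899, 962 and 851 in the TM libraries, at 1047, 936, 1050.2, 1285 and 865 in the NAC libraries, and at 959.7, 753, 923, 986 and 955 in the Control libraries. NAC library 4 was the highest and Control library 2 the lowest, and the groups overlapped. The log2 fold of Phka1 was -0.28 ± 0.09 in TM+NAC against NAC, the smallest unadjusted p of the members there (0.00800, edgeR adjusted p = 0.409), and 0.18 ± 0.09 in NAC against Control. Its interaction was -0.32 ± 0.13, and without NAC library 4 the fold against NAC was -0.19. Phkb ranged over 398 to 832 CPM, with NAC library 4 the highest. Phkg1 ranged over 577 to 719.5 CPM, and 4.74% of tested genes had a smaller within-group SD.

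**Figure D5:**
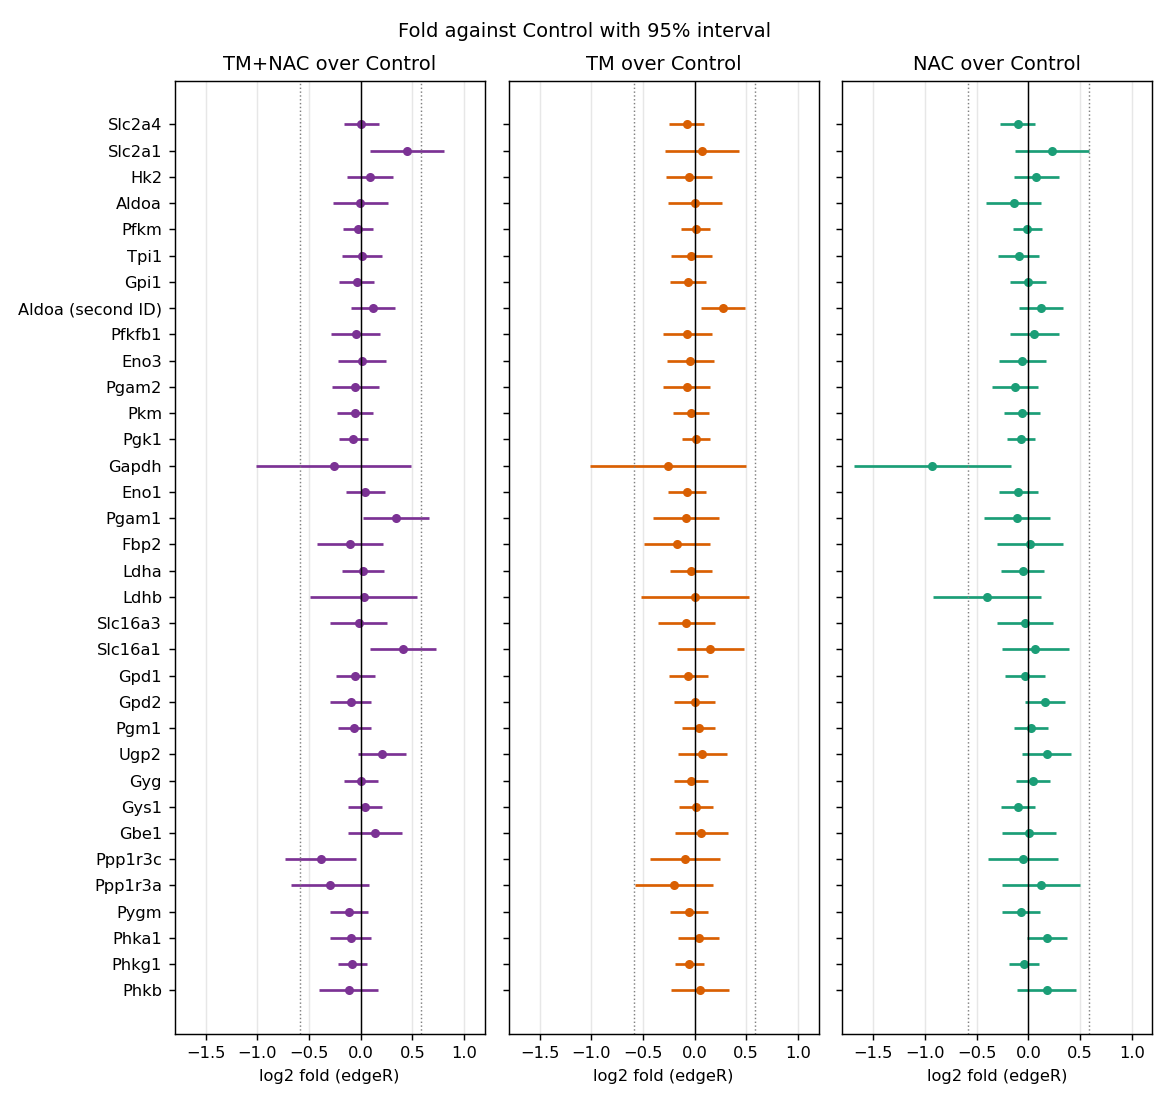
Log2 fold against Control (points) with its 95% interval (lines) for the 34 tested entries, from the edgeR fit, in TM+NAC, TM and NAC. Dotted lines mark 1.5-fold in either direction; most intervals lie between them, and Gapdh has the widest.

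Counted over the whole set, edgeR's quasi-likelihood test with Benjamini-Hochberg adjustment over 9696 genes called 0 of the 34 entries in each of the 8 comparisons. The share of all tested genes called was 0.351% in TM+NAC against Control, 0% in TM against Control, 0.217% in NAC against Control, and 0.0309% in TM+NAC against TM and against NAC. It was 0.0413% for the mean effect of TM, 0.309% for that of NAC and 0.0103% for the interaction. At these shares a set of 34 would hold fewer than 1 call. DESeq2 and limma also called 0 of them in each comparison.

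At an unadjusted p under 0.05 stood 4 of the 34 entries (11.8%) in TM+NAC against Control, where 6.38% of all tested genes did. In TM against Control it was 1 entry (2.94%, all genes 3.37%), and in NAC against Control 1 (2.94%, all genes 7.44%). In TM+NAC it was 2 against TM (5.88%, all genes 5.19%) and 6 against NAC (17.6%, all genes 11.9%). The mean effect of TM had 2 (5.88%, all genes 5.66%), that of NAC 1 (2.94%, all genes 6.04%) and the interaction 2 (5.88%, all genes 7.28%). Pairs of comparisons that share a group are not independent of each other.

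By the range of single libraries, no tested entry had all 5 treated libraries above or below all 5 Control libraries. Over all tested genes, 1.10% lay wholly above and 1.09% wholly below Control in TM+NAC, 0.268% and 0.175% in TM, and 0.309% and 0.289% in NAC. In TM+NAC, 0.959% lay wholly above TM and 0.846% wholly below it, and 1.44% lay wholly above NAC and 1.19% wholly below it. Pgam1 was the 1 entry above TM and above NAC, and no entry lay wholly below either.

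The median log2 fold of the 34 entries was -0.02 in TM+NAC, -0.04 in TM and -0.03 in NAC against Control, where the median over all tested genes was -0.0059, -0.00054 and 0.00031. The median SE of a member's fold was 0.10. The 95% interval lay within 1.5-fold in either direction for 28 of the 34 entries in TM+NAC, 33 in TM and 31 in NAC against Control. A fold was positive for 15 of 34 in TM+NAC against Control, but for 24 with scaling by library totals and for 31 on log2(FPKM + 1), settings that move the median of all genes by 0.07 and 0.11. Positive folds numbered 14 in TM and 14 in NAC against Control, and 25 and 23 on log2(FPKM + 1).

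The folds of paired forms in TM+NAC against Control are given side by side, with Hk1 and Pfkl from the fit without the limit on low levels and the rest from the fit with it. The log2 folds were 0.50 ± 0.15 for Hk1, 0.48 ± 0.16 for Pfkl, 0.45 ± 0.17 for Slc2a1, 0.41 ± 0.16 for Slc16a1 and 0.34 ± 0.15 for Pgam1. For their partners they were 0.09 ± 0.11 for Hk2, -0.03 ± 0.07 for Pfkm, 0.01 ± 0.08 for Slc2a4, -0.02 ± 0.13 for Slc16a3 and -0.05 ± 0.11 for Pgam2. Eno1 (0.05 ± 0.09) and Ldhb (0.03 ± 0.25) had folds as small as those of Eno3 and Ldha (0.01 ± 0.11 and 0.02 ± 0.10). Gpd2 and Gpd1, the different enzymes of 1 shuttle, had negative folds (-0.10 ± 0.09 and -0.05 ± 0.09). The difference between the folds of 2 partners was not tested. The share of Pgam1 in the summed FPKM of both mutases was 0.501% ± 0.0940 in TM+NAC, 0.373% ± 0.0623 in TM, 0.377% ± 0.0709 in NAC and 0.372% ± 0.0445 in Control. The share of Pfkl with Pfkm was 0.139% ± 0.0220 in TM+NAC, 0.108% ± 0.0238 in TM, 0.107% ± 0.0213 in NAC and 0.0970% ± 0.0209 in Control. None of these folds passed. The mean neuron, cartilage and astrocyte and oligodendrocyte sums were highest in the same group, the last at 63.2 CPM against 60.9 CPM in NAC. The mean Schwann cell sum was highest there too, at 305 ± 121 CPM against 195 ± 146 in Control, as was the mean fibroblast sum, at 678 ± 121 against 557 ± 146. Both of these overlapped between TM+NAC and Control. The part of all these sums was not tested.

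Among further genes of the pathway, none above the limit on low levels passed, and Aldoc and Eno2, just below it, passed in a fit without it. In each of the 8 comparisons, edgeR called 0 of 13 tested genes of glycolysis and gluconeogenesis outside the 36, 0 of 12 glycogen genes, 0 of 13 transporters and pyruvate entry genes and 0 of 19 regulators of glucose use. Pygb, the brain form of glycogen phosphorylase, averaged 7.87 ± 1.09 CPM in TM+NAC, 6.44 ± 0.890 in TM, 6.38 ± 1.37 in NAC and 5.04 ± 1.26 in Control (SD, n = 5). Every TM+NAC library was above every Control library for Pygb, as for 1.10% of tested genes, and its log2 fold of 0.64 ± 0.17 had an edgeR adjusted p of 0.169. Mlxip (MondoA), a glucose-sensing transcription factor of muscle, averaged 86.7 ± 5.96 CPM in TM+NAC and 103 ± 9.38 CPM in Control, and the mean effect of NAC on it was -0.19 ± 0.06 (adjusted p = 0.313). Pfkfb4, a relative of Pfkfb1, had a mean effect of NAC of 0.27 ± 0.09 (adjusted p = 0.467). Pgm2l1, a glucose 1,6-bisphosphate synthase, averaged 38.0 ± 7.96 CPM in NAC and 28.6 ± 4.15 CPM in Control, with an adjusted p of 0.529. Bsg, the chaperone of the lactate carriers, had a log2 fold of 0.25 ± 0.11 in TM+NAC against NAC (adjusted p = 0.409). The symbols Pgk2 and Ldhc of these lists were not analysed here.

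Of the listed pathway genes below the limit, 23 entered the fit without it, a setting added for them after their values were seen. That fit called 2 of the 23 as higher in TM+NAC than in Control (1.79% of all 31618 genes called), 1 in TM (0.623%), 2 in NAC (1.39%), 2 for the mean effect of NAC (1.34%) and 0 in the other 4 comparisons. They were Aldoc, the brain form of aldolase, and Eno2, the neuronal enolase, with Aldoc the 1 called in TM.

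Aldoc averaged 0.945 FPKM and was measured at 4.95, 4.89, 5.12, 5.36 and 6.905 CPM in the TM+NAC libraries, at 0.581, 3.95, 4.66, 4.32 and 4.16 in the TM libraries, at 6.31, 4.75, 5.93, 0.202 and 6.14 in the NAC libraries, and at 0.574, 0.36, 0.555, 0.392 and 0.574 in the Control libraries. All TM+NAC libraries, all TM libraries and 4 NAC libraries lay above all Control libraries, with TM library 1 just above the highest of them. NAC library 4 lay below all Control libraries. Of the tested genes, 1.10% lay wholly above Control in TM+NAC and 0.268% in TM, although Aldoc itself was below the level for testing. The log2 fold of Aldoc against Control was 3.45 ± 0.59 in TM+NAC, 2.83 ± 0.58 in TM and 3.22 ± 0.58 in NAC, with edgeR adjusted p of 0.00217, 0.0262 and 0.00504. Eno2 averaged 0.803 FPKM and was measured at 5.83, 6.39, 5.22, 7.54 and 8.21 CPM in the TM+NAC libraries, at 1.12, 4.34, 4.24, 4.998 and 4.63 in the TM libraries, at 7.26, 7.27, 6.87, 0.807 and 6.698 in the NAC libraries, and at 0.817, 1.67, 1.37, 0.98 and 0.989 in the Control libraries. TM library 1 lay within the Control range and NAC library 4 just below it, apart from their groups. The log2 fold of Eno2 against Control was 2.49 ± 0.43 in TM+NAC, 1.72 ± 0.43 in TM and 2.29 ± 0.43 in NAC, with edgeR adjusted p of 0.00252, 0.0783 and 0.00649.

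Leaving out 1 library at a time kept both genes called in TM+NAC and in NAC against Control and for the mean effect of NAC. In TM against Control, the adjusted p ran from 0.000296 to 0.0922 for Aldoc, which lost its call without any 1 Control library or any 1 of TM libraries 2 to 5. For Eno2 it ran from 0.00227 to 0.217 there, and Eno2 was called without TM library 1 (0.00951) or NAC library 4 (0.00227). TM library 1 and NAC library 4 also gave the lowest neuron sums of their groups, at 9.26 and 6.14 CPM, and the part of the neuron and the astrocyte and oligodendrocyte markers in Aldoc and Eno2 was not tested.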

How the data were processed

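Poly(A) RNA of gastrocnemius was sequenced with a kit that marks strand through dUTP, per the labels' protocols. The authors deposited 1 table of 31618 genes with, per the file headers, a whole-number count and an FPKM value for each of 20 libraries. The submitters' processing notes name cutadapt 1.9, FastQC, HISAT2 2.2.1, StringTie and the genome build GRCm38. The annotation release, the counter and its use of strand are not named.

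Genes with a mean of at least 1 FPKM (9696 genes) were kept, and their counts were scaled by TMM and fitted in 1 edgeR quasi-likelihood model of the 4 groups (edgeR 4.0.16, R 4.3.3). The test was two-sided with Benjamini-Hochberg adjustment across the 9696 genes and a threshold of 0.05. Intervals are 95%, and an SE is |log2 fold| over the root of F. Alternatives were DESeq2 1.42.0, limma 3.58.1 on log2(FPKM + 1) and log2(FPKM + 0.1), other filters and scalings, only the groups compared, the replicate number as a block, and leaving out each library. Sequences came from RefSeq promoter windows and GENCODE M21 transcripts. The fit was tested on simulated data.

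The 36 members and the other gene lists were chosen with earlier results of these data known. Values in every library are given for the 4 tested members with the smallest p in each comparison and for pairs of isoforms. No pair of libraries held identical values. The result of 1 marker gene is not reported here, and the sum over the other 7 astrocyte and oligodendrocyte markers was formed after their values were seen.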

Additional observations from a re-analysis of the deposited data

Results flagged for a closer look

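Within each group of 5 libraries, the highest or lowest value of a gene was set against the range of the group (Dixon's test at its 95% critical value). Of 148 groups of 5 tested, 18 held a library far from the other 4, and chance alone flags about 1 group in 20. NAC library 4 gave 7 of the 18.

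In NAC library 4, Aldoa was low at 9770 CPM (other NAC libraries 13938 to 15081), Pgam1 was low at 7.85 CPM (14.2 to 14.3) and Pfkl was low at 4.45 CPM (7.26 to 8.16). In the same library Gyg was high at 343 CPM (290 to 303), Phkb at 832 CPM (461 to 535), Ppp1r3a at 507 CPM (237 to 291) and Fbp2 at 52.9 CPM (32.5 to 35.1). That library also had the largest total and the largest mitochondrial share of counts, and their part in these values was not tested.

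TM+NAC library 4 was high for Ppp1r3c at 367 CPM. TM library 4 was high for Pfkm at 3719 CPM and for Ldha at 3458 CPM, TM library 2 was low for Gapdh at 202 CPM, and TM library 5 was high for Slc2a1 at 8.07 CPM. NAC library 2 was high for Ldha at 2997 CPM. Control library 4 was high for Hk2 at 314 CPM, for Ppp1r3a at 419 CPM and for Fbp2 at 49.5 CPM. Control library 1 was high for Pkm at 3726 CPM, and Control library 2 was low for Phka1 at 753 CPM.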

How the results depend on the processing

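No setting read for the members called any: 0 of them passed in 237 fits by comparison over 30 alternative settings, and the lowest adjusted p was 0.116 (Hk1 without a filter). Fits without a filter that also left out libraries were read for Aldoc and Eno2 only. For the 4 tested members with the smallest p in each comparison (32 log2 folds), all 945 recomputed values kept their direction. Small folds of other members did not, since positive ones in TM+NAC against Control numbered 15 as reported, 24 by library totals and 31 on log2(FPKM + 1). Without a filter, 2 further pathway genes (Aldoc and Eno2) were called as higher in TM+NAC than in Control. The number of all genes called moved more, in the order TM+NAC, TM and NAC against Control, TM+NAC against TM and against NAC, mean effect of TM, mean effect of NAC and interaction. These were 34, 0, 21, 3, 3, 4, 30 and 1 as reported. They became 77, 19, 38, 19, 8, 18, 56 and 9 with DESeq2. Without a filter they became 566, 197, 439, 21, 13, 22, 424 and 7, and with a mean of at least 5 FPKM 0, 2, 0, 0, 0, 0, 0 and 0. On log2(FPKM + 1) with limma they were 45, 1, 2, 6, 6, 7, 24 and 3, and on log2(FPKM + 0.1) 45, 1, 3, 6, 5, 5, 14 and 1. With only the groups compared, the first 5 were 57, 2, 0, 9 and 4. Median-ratio scaling and library totals kept each within 1.5 times of the reported count. The cause of these changes was not tested.

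Leaving out 1 library at a time gave 21 to 57, 0 to 22, 4 to 41, 3 to 6, 3 to 4, 2 to 10, 10 to 59 and 0 to 7 genes. The highest counts of 57, 22, 41, 10, 59 and 7 came without NAC library 4. Without TM library 1, 12 genes were called in TM against Control. With both left out, a choice made after seeing the data, the counts were 64, 30, 45, 7, 4, 25, 55 and 23, and 0 members were called.

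With the replicate number as a block, the counts were 41, 0, 10, 3, 3, 2, 15 and 0, and no member was called. Of 30 pairs of libraries with the same number in different groups, 11 had deviations that correlated above 0.1, and 5 of 20 libraries matched best with their own number, so the numbers were not taken to pair the libraries.

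The median shares of 1 gene of a pair by counts in place of FPKM were 96.2% against 97.3% for Hk2, 0.238% against 0.118% for Pfkl, 1.47% against 0.480% for Eno1, 0.972% against 0.414% for Pgam1, 5.82% against 11.5% for Ldhb and 24.9% against 13.1% for Gpd2. Counts are not divided by length, but the lengths behind the deposited FPKM values are not given. The transcript with the longest coding sequence had 2027 bases for Eno1 and 1564 for Eno3. The part of length in these shifts was not tested. The median log2 fold of the members in TM+NAC against Control was 0.10 on either FPKM scale, against -0.02 as reported. The counts were lowest for Hk1, Pfkl, Pgm2 and Slc2a1, with means of 592, 465, 157 and 455 per library.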
